A study of Rattus norvegicus with 14 samples.

Results

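The genes of the unfolded protein response and the integrated stress response were examined in the choroid plexus (CP) of gonadectomized and sham-operated rats. The set holds 10 genes of the 15154 named on the arrays: Ppp1r15a and Ppp1r15b, Atf4, Ddit3 and Trib3, Xbp1, and Hspa5, Dnajb9, Sdf2l1 and Herpud1. They were taken by name, with earlier results of these data known, through the accession of each probe, and where a gene had more than 1 probe the brightest was read. All 10 were measured, and the scanner software marked each as well above background on every array that measured it. Expression was measured on 14 one-colour arrays in lateral ventricle CP of Wistar rats, aged 2 months at surgery and sampled 2 weeks later: ovariectomized (OVX) females (3 arrays), sham females (3 arrays), orchidectomized (OOX) males (4 arrays) and sham males (4 arrays). All rats had food and water freely under a cycle of 12 h light and 12 h dark, and the castrated animals were anesthetized with ketamine and medetomidine before the CP was removed. Each array carried RNA pooled from 3 animals. The methods describe fewer pools per group than the labels give for the males, and the paper lists fewer animals per group than pools without shared animals would take. The p-values therefore measure the spread between these pools, which may not be independent.

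When unfolded proteins build up in the endoplasmic reticulum (ER), the membrane sensors PERK, IRE1 and ATF6 start the unfolded protein response, which raises chaperones and the machinery that clears misfolded proteins. PERK is also one of the kinases of the integrated stress response: it phosphorylates the translation factor eIF2-alpha, which slows protein synthesis as a whole and favours translation of ATF4. The CP epithelium forms the blood-cerebrospinal fluid barrier and secretes large amounts of protein, transthyretin among them, through the ER. The arrays measured RNA only. Phosphorylation of eIF2-alpha, translation of Atf4 and splicing of Xbp1 by IRE1, through which much of this pathway acts, were not measured.

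The levels given here are log2 signals over the median of the array, so that 0 is the median probe and 1 unit is a 2-fold difference. They set one array against another for the same gene, and levels of different genes were not compared, since probes differ in how they bind. All 10 markers of choroid epithelium were well above background on every array, and 4 of them, Ttr, Folr1, Kcnj13 and Enpp2, were saturated on every array. Between 79.7% and 87.2% of spots were well above background. The arrays came from 5 slides read on 2 scan days. All sham female arrays and OVX replicate 1 were read on 1 of these days, and OVX replicates 2 and 3 on the other. In females the scan day therefore largely follows the treatment. All male arrays were read on the same day, and only 1 slide held both female groups (OVX replicate 1 and sham replicate 3) and only 1 both male groups (OOX replicate 4 with sham replicates 1 and 2). The median probe signal was 206, 261, 261 and 239 on the OOX arrays, against 195, 196, 209 and 176 on the sham male arrays. The scaling to the array median takes out such a difference in brightness only as 1 constant per array, and not for saturated probes.

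No gene of the set passed the test in either sex. The gene with the smallest p was Ppp1r15b in males, at a fold of 0.619 in OOX over sham pools, with no overlap between the groups and an adjusted p of 0.209 over all genes. In females the differences lay between -0.27 and 0.13 on the log2 scale. These comparisons ask whether the loss of ovarian or testicular hormones was accompanied by another level of these transcripts.

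**Figure D1:**
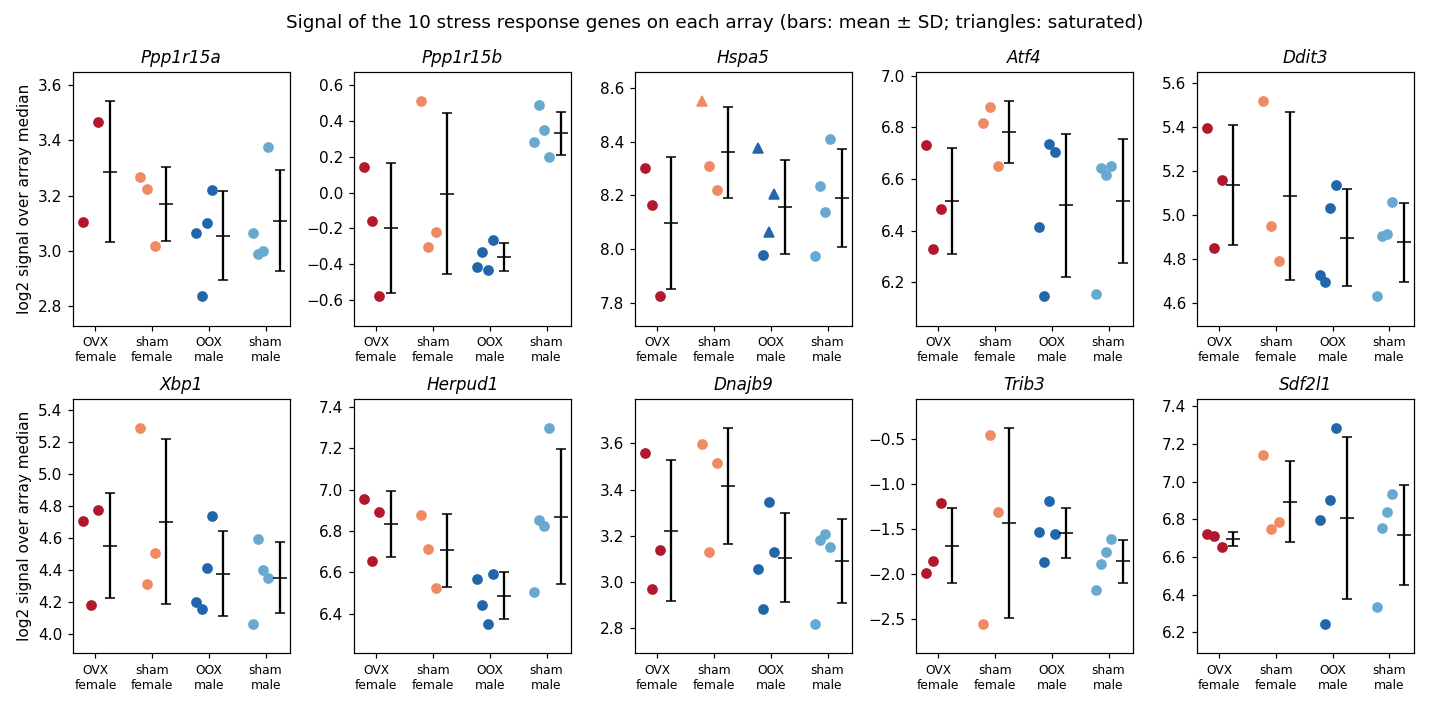
Log2 signal over the array median (y axis, its own scale in each panel) of the 10 genes on every array, by group (x axis: OVX female, sham female, OOX male, sham male). Points are arrays, triangles are arrays on which the probe was saturated, and the bars give mean ± SD; Ppp1r15b is the only gene whose 4 OOX points (-0.43 to -0.27) all lie below the 4 sham male points (0.20 to 0.49).

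Ppp1r15a and Ppp1r15b encode the regulatory subunits, known as GADD34 and CReP, that direct a phosphatase to eIF2-alpha and so end the block on protein synthesis; Ppp1r15a is induced by stress, and Ppp1r15b is present without it. Ppp1r15b was at -0.42, -0.33, -0.43 and -0.27 on the OOX arrays, against 0.28, 0.49, 0.35 and 0.20 on the sham male arrays. Every OOX array was below every sham male array, and the gap between the groups was wider than the range within either. The means were -0.36 ± 0.08 in OOX and 0.33 ± 0.12 in sham males (SD, n = 4 each). The difference was -0.69 (SE 0.12, 95% confidence interval -0.97 to -0.41), a fold of 0.619 with an interval of 0.510 to 0.751, and limma gave an unadjusted p of 0.000379 and an adjusted p of 0.209. Of all genes, 31 had a smaller p in this comparison, 5 of them with a lower level in OOX. Within the slide that held both groups the difference was -0.65 (-0.55 against sham replicate 1 and -0.76 against sham replicate 2), and with the slide as a block the adjusted p was 0.8287. Before scaling, the signals were 154, 208, 193 and 199 on the OOX arrays, against 237, 275, 265 and 202 on the sham male arrays, so that the highest OOX signal passed the lowest sham signal and the complete separation appeared only once each array was set on its own median.

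Over the 22 other ways of processing or sampling the male arrays that were tried, Ppp1r15b stayed lower in OOX, with differences between -0.74 and -0.49. The adjusted p lay between 0.0681 and 0.8287 and passed the threshold of 0.05 in none of those with a test (the value within a slide has none). Leaving out each array in turn gave differences between -0.74 and -0.64. As the groups did not overlap, leaving out 1 array could not change the sign. Not all of the 22 ways are separate checks. The methods' t-test, all groups in 1 fit, dim probes left out and the replicate block keep the difference of -0.69 by design. So does the mean over probes, as the gene had 1 probe. The value within the slide is that of the slide block.

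**Figure D2:**
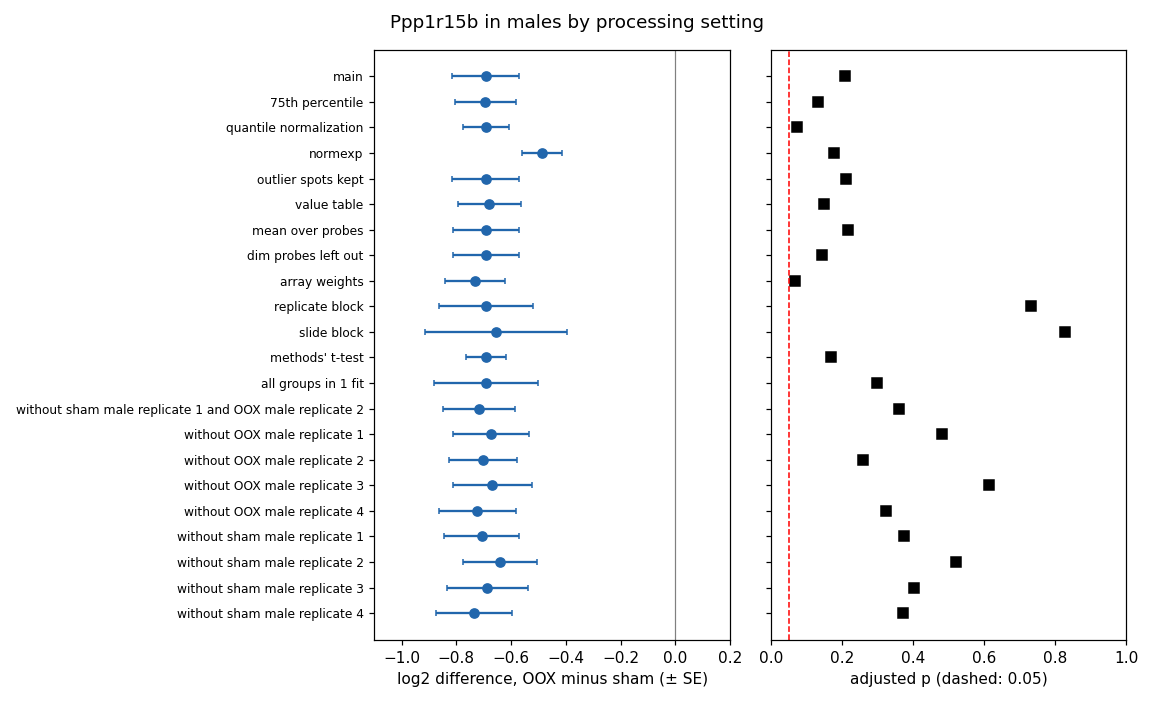
Difference of Ppp1r15b between OOX and sham males (left, log2, ± SE) and its adjusted p (right) under each setting, 1 setting a line. All differences lie between -0.74 and -0.49, and all adjusted p-values lie above the dashed line at 0.05, the lowest at 0.0681 with array weights.

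In females Ppp1r15b was at 0.14, -0.16 and -0.58 on the OVX arrays, against 0.51, -0.31 and -0.22 on the sham arrays. The groups overlapped, and the spread within each (SD 0.36 in OVX, 0.45 in sham) was larger than the difference of -0.19 (SE 0.29, adjusted p 0.732). The slide that held both groups gave the opposite sign, 0.36, from 1 array of each. By mean level the groups ran in the order sham male, sham female, OVX female, OOX male, and neighbours in this order overlapped: the sham female range reached from the OOX to the sham male values, and the OVX range held all OOX values. Females and males were not tested against each other as levels, because slide and scan day follow sex in part. All sham female arrays were read on a day that held no male array, while OVX replicates 2 and 3 shared slides and the scan day with male arrays. The male effect minus the female effect was -0.50 for Ppp1r15b (SE 0.29, 95% confidence interval -1.13 to 0.13, adjusted p 0.563), an interval that holds 0 and also values larger than the male effect itself.

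Ppp1r15a was at 3.11 and 3.47 on 2 OVX arrays, against 3.27, 3.22 and 3.02 on the sham female arrays. Its only spot on OVX replicate 3 was marked as an outlier by the scanner software and left out. With that spot kept it would be at 1.72, and the fitted difference in females would be -0.40 in place of 0.12. In males it was at 3.06, 2.83, 3.10 and 3.22 in OOX, against 3.07, 2.99, 3.00 and 3.38 in sham, and the difference was -0.05 (SE 0.15, 95% confidence interval -0.39 to 0.28).

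Atf4, Ddit3 and Trib3 stand downstream of eIF2-alpha: ATF4 is the transcription factor that the response favours, Ddit3 encodes CHOP, a factor that ATF4 induces, and Trib3 encodes a pseudokinase that both induce and that acts back on them. Atf4 was at 6.73, 6.33 and 6.48 on the OVX arrays, against 6.82, 6.88 and 6.65 on the sham female arrays. Replicates 2 and 3 of OVX lay below all sham arrays, and replicate 1 lay among them. With a difference of -0.27 (SE 0.15, 95% confidence interval -0.63 to 0.10), Atf4 had the smallest p of the set in females, and its adjusted p was 0.364. The slide that held both female groups gave 0.08, and the scan day as a block gave -0.05. In males Atf4 was at 6.41, 6.15, 6.73 and 6.70 in OOX, against 6.16, 6.64, 6.61 and 6.65 in sham, and OOX replicate 2 and sham replicate 1 were the lowest arrays of their groups. The difference was -0.02 (SE 0.19).

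Ddit3 was at 5.40, 4.85 and 5.16 on the OVX arrays, against 5.52, 4.95 and 4.79 on the sham female arrays, and at 4.73, 4.70, 5.03 and 5.14 in OOX, against 4.63, 4.90, 4.91 and 5.06 in sham males. Differences were 0.05 in females (SE 0.24) and 0.02 in males (SE 0.16), with all groups overlapping within a sex, and within the slide that held both groups they were 0.61 in females and 0.37 in males. Trib3 varied most from array to array, with a SD of 0.51 over the 14 arrays. It was at -1.99, -1.85 and -1.21 on the OVX arrays, against -2.55, -0.46 and -1.31 on the sham female arrays. The sham female arrays alone spanned 2.09 log2 units, and the interval of the difference, -0.25, reached from -1.52 to 1.03. In males Trib3 was at -1.54, -1.87, -1.19 and -1.56 in OOX, against -2.18, -1.89, -1.76 and -1.61 in sham. The 3 highest male values were OOX arrays, while OOX replicate 2 lay among the sham arrays. The difference of 0.32 (SE 0.19, 95% confidence interval -0.11 to 0.75, adjusted p 0.773) was the largest positive one of the set in males.

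Xbp1 encodes the factor that IRE1 activates by splicing its RNA, and the probe gave the total signal. It was at 4.70, 4.18 and 4.78 on the OVX arrays, against 5.29, 4.31 and 4.51 on the sham female arrays, where replicate 1 was the highest of all 14. In males it was at 4.20, 4.15, 4.41 and 4.74 in OOX, against 4.06, 4.596, 4.40 and 4.35 in sham. The differences were -0.15 in females (SE 0.30) and 0.02 in males (SE 0.18).

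The other genes act in the ER itself. Hspa5 encodes BiP, the main Hsp70 chaperone of the ER, Dnajb9 encodes one of its co-chaperones, ERdj4, and the product of Sdf2l1 works in complex with ER chaperones. Herpud1 encodes a membrane protein of ER-associated degradation. Hspa5 was at 8.30, 8.17 and 7.82 on the OVX arrays, against 8.55, 8.31 and 8.22 on the sham female arrays, and at 8.38, 7.98, 8.06 and 8.21 in OOX, against 7.97, 8.24, 8.14 and 8.41 in sham males. The difference was -0.26 in females (SE 0.17, adjusted p 0.430) and -0.03 in males (SE 0.15). Leaving out 1 array at a time gave -0.37 to -0.13 in females. These values have a ceiling: the probe was saturated on 3 of 4 OOX arrays, 0 of 4 sham male arrays, 0 of 3 OVX arrays and 1 of 3 sham female arrays. Before scaling, its signals were 68535, 65947, 69840 and 70640 in OOX, against 48902, 59103, 58722 and 59831 in sham males, so that every OOX signal was above every sham signal and the saturated ones are lower bounds. Quantile normalization gave a male difference of 0.20 (adjusted p 0.466), of the opposite sign. Of the markers of choroid epithelium, which are also bright, 5 were lower in OOX at an unadjusted p under 0.05 (Ttr, Folr1, Otx2, Kcnj13 and Enpp2), and all 5 were saturated on every male array. The direction of Hspa5 in males was not settled by these arrays.

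Dnajb9 was at 3.56, 2.97 and 3.14 on the OVX arrays, against 3.60, 3.13 and 3.52 on the sham female arrays, and at 3.06, 2.88, 3.35 and 3.13 in OOX, against 2.82, 3.18, 3.21 and 3.15 in sham males. The differences were -0.19 in females (SE 0.21, and -0.36 to -0.07 with 1 array left out at a time) and 0.01 in males (SE 0.15). Sdf2l1 was at 6.72, 6.71 and 6.65 on the OVX arrays, against 7.14, 6.75 and 6.79 on the sham female arrays. It was the only gene of the set whose female groups did not overlap, which 16.2% of all genes also showed in this direction, and the difference of -0.20 (SE 0.15, adjusted p 0.484) was -0.07 without sham replicate 1. In males it was at 6.80, 6.25, 6.90 and 7.28 in OOX, against 6.33, 6.75, 6.84 and 6.94 in sham, with a difference of 0.09 (SE 0.24). Within the slide that held both male groups it was 0.74, from 0.95 against sham replicate 1 and 0.53 against sham replicate 2. Sdf2l1 was the only gene with a further probe, which gave -0.16 in females and -0.05 in males, where the sign differed from that of the brighter probe.

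Herpud1 was at 6.57, 6.44, 6.35 and 6.59 in OOX, against 6.50, 6.85, 6.82 and 7.30 in sham males. Of the sham arrays only replicate 1 lay within the OOX range, and replicate 4 was the highest of all 14 arrays. The difference of -0.38 (SE 0.18, 95% confidence interval -0.79 to 0.03, adjusted p 0.668) was the next largest negative one after Ppp1r15b. The difference was -0.24 without sham replicate 4 and -0.50 without sham replicate 1. The slide that held both male groups gave -0.09, from 0.09 against sham replicate 1, the array with the highest neuron markers, and -0.26 against sham replicate 2. On the OVX arrays Herpud1 was at 6.95, 6.65 and 6.89, against 6.88, 6.71 and 6.53 on the sham female arrays, a difference of 0.13 (SE 0.15). The male effect minus the female effect was -0.51 (SE 0.24, 95% confidence interval -1.03 to 0.02, adjusted p 0.441).

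**Figure D3:**
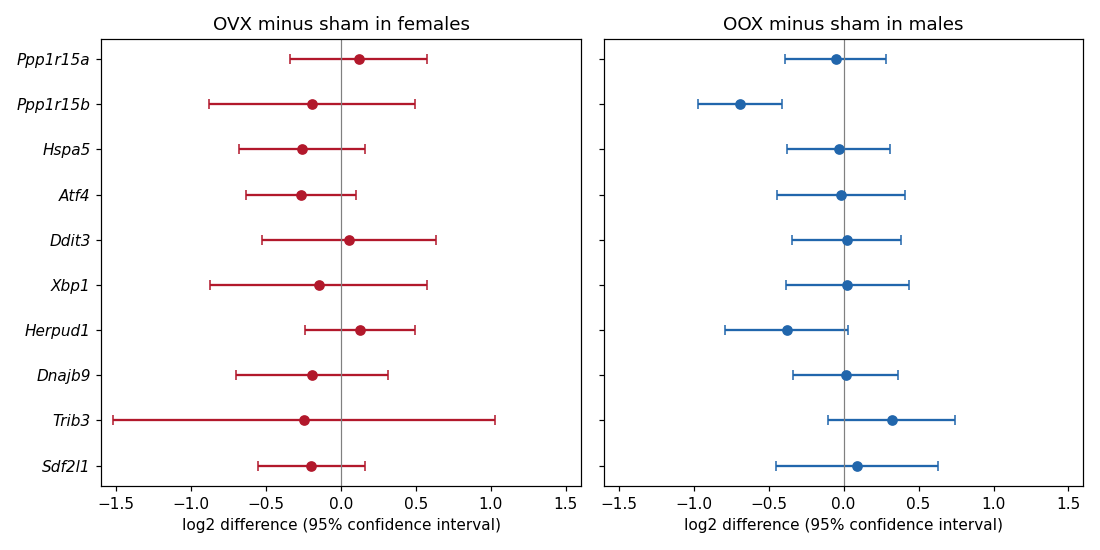
Log2 difference (x axis, with its 95% confidence interval) of each gene between OVX and sham females (left) and between OOX and sham males (right). In the right panel Ppp1r15b is the only gene whose interval, -0.97 to -0.41, does not include 0; in the left panel every interval includes 0.

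Counted over the set, limma called 0 of 10 genes in females at an adjusted p under 0.05, against 6.22% of all genes, and 0 of 10 at an unadjusted p under 0.05, against 19.9%. The share of all genes rests on few arrays: 942 genes were called, and 2 to 16 when any array but sham replicate 2 was left out. The count was 950 without that array, 14 with the scan day as a block and 0 with the slide as a block. For the 10 genes of the set, the test that the methods name also gave 0 in both counts. The fitted difference was below 0 for 7 of 10 genes, where 58.6% of all genes were below 0, and the median over the set was -0.19 where that of all genes was -0.07. In males limma called 0 of 10, against 0.0858% of all genes. At an unadjusted p under 0.05 it gave 1 of 10, Ppp1r15b, against 6.88% of all genes, and the test of the methods gave the same gene. Groups that did not overlap, with OOX lower, were found for 1 of 10 and for 1.57% of all genes. The median over the set was -0.0012 in males, where that of all genes was 0.02. In the male effect minus the female effect 0 of 10 passed, against 0.251% of all genes, with 0 at an unadjusted p under 0.05, against 10.3%.

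The genes of the set also moved with single arrays. Of the 4 OOX arrays, replicate 2 was the lowest for 8 of the 10 genes, and of the 4 sham male arrays, replicate 1 was the lowest for 8. Sham female replicate 1 was the highest of its group for 8. These counts are given for the set alone and do not show that the pattern is particular to it. The summed level of 5 astrocyte markers was 85.3 times the array median on OOX replicate 2 and 67.9 on sham male replicate 1, against at most 37.6 on the other 6 male arrays, and that of 8 neuron markers was 28.3 and 58.6 on these arrays, against 2.76 to 13.7 on the other 6. The part of this neighbouring tissue in the members' values was not tested. Without both arrays the difference of Ppp1r15b in males was -0.72, with an adjusted p of 0.360. In pooled tissue, fewer cells of a type and less RNA per cell cannot be told apart.

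**Figure D4:**
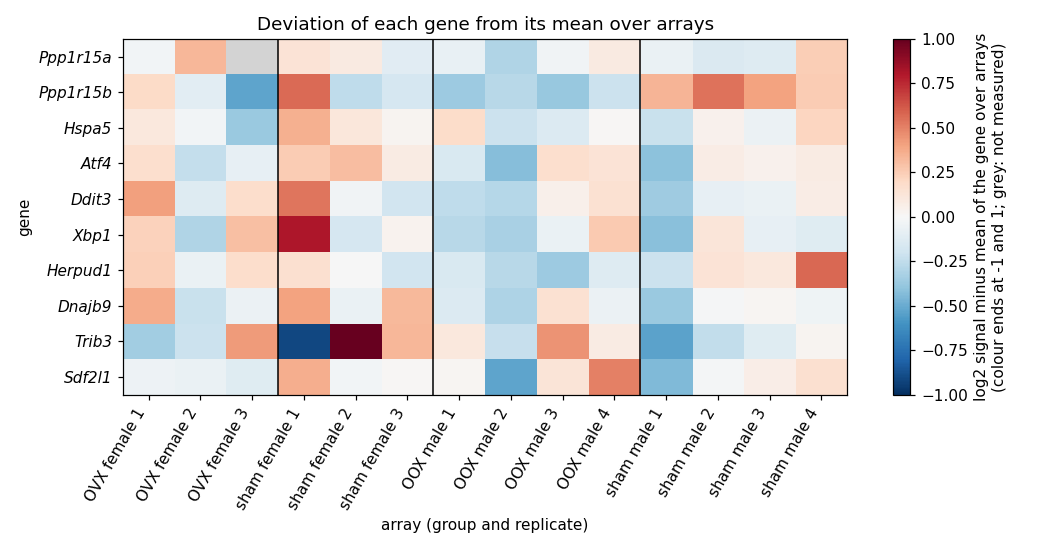
Deviation of each gene (rows) from its own mean over the arrays (columns, by group and replicate), in log2 units, with red above and blue below the mean; the grey cell was not measured. OOX replicate 2 and sham male replicate 1 are blue for most genes, and in the Ppp1r15b row all 4 OOX arrays are blue and all 4 sham male arrays are red.

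Across the 14 arrays the highest correlation between members was that of Ddit3 with Xbp1 (r = 0.88), followed by Atf4 with Dnajb9 (0.76) and Atf4 with Sdf2l1 (0.76), and the lowest was that of Ppp1r15b with Trib3 (-0.68). The arrays share slides and differ in admixed tissue, so these are descriptions. Among 11120 other genes that were well above background and unsaturated on all arrays, the patterns most like that of Ppp1r15b were those of Tmem260 (r = 0.88), Ctnnd1 (0.87), Zfp26 (0.86), B4galt1 (0.86) and G3bp2 (0.85). Their own differences in males lay between -0.54 for Ctnnd1 and -0.33 for Zfp26. Those most like Atf4 were Ndufaf8 (0.96), Anapc13 (0.96), Fam32a (0.96), Ube2z (0.95) and Uqcc3 (0.95), whose differences in females lay between -0.30 for Uqcc3 and -0.20 for Ube2z. Both groups of genes were picked by their likeness over these same arrays. A direction shared with Ppp1r15b or Atf4 therefore follows from the choice and is no further result.

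The promoters of the set were searched for the sequences through which these pathways are known to act, in the 250 bases before each start in RefSeq (rat build GRCr8), on both strands. All 10 genes were in that table. The motifs were the ER stress response element ERSE (CCAAT and CCACG with 9 free bases between them), its shorter form ERSE-II (ATTGG and CCACG with 1 free base between them), the unfolded protein response element UPRE (TGACGTGG), the cyclic AMP response element CRE (TGACGTCA) and a composite site of C/EBP and ATF factors (TGATGCAA). Of 33469 promoters, ERSE was in 0.0657%, ERSE-II in 0.0418%, UPRE in 0.520%, CRE in 1.59% and the composite site in 0.693%. In the set ERSE was found in Hspa5 and Xbp1, ERSE-II in Herpud1, CRE in Ppp1r15a, the composite site in Ppp1r15b and Herpud1, and UPRE in 0 of 10. None of the matches overlapped another. The windows around them are shown because they hold every match found in the set, with the matches in capitals; the match of Herpud1 nearer its 5′ end is the composite site on the opposite strand.
Hspa5, chr3:38452953-38453011, + strand: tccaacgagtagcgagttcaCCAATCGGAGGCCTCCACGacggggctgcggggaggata
Xbp1, chr14:84604538-84604596, + strand: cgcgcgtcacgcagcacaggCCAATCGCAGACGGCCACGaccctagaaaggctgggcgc
Herpud1, chr19:10614801-10614911, - strand: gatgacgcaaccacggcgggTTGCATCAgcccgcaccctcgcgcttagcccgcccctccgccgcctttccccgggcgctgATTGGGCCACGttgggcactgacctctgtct
Ppp1r15a, chr1:105139635-105139682, - strand: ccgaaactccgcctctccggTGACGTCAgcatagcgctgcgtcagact
Ppp1r15b, chr13:47129802-47129849, + strand: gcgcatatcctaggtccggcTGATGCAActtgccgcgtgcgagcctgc

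The rest of the pathway was read from 6 lists: the sensors and their partners, the targets of the integrated stress response (ISR targets), ER chaperones and folding enzymes, ER-associated degradation (ERAD) and translocation into the ER, the cytosolic heat shock response and the early response. They hold 82 measured genes outside the set, of which limma called 0 in either sex. At an unadjusted p under 0.05, 10 of 82 passed in females (12.2%, against 19.9% of all genes), 4 higher and 6 lower in OVX. In males 9 of 82 passed (10.98%, against 6.88% of all genes), all 9 lower in OOX, where 2.56% of all genes passed as lower. Among the 9 was Hspa8 (-0.32), which missed the rule for naming genes: well above background in a group and not saturated throughout. These counts moved with the setting: the pathway genes gave 15 lower and 3 higher with the 75th percentile (5.13% of all genes lower), 10 lower and 2 higher with normexp (14.1%), 4 lower and 3 higher without OOX replicate 2 (1.56%), and 0 lower and 3 higher with the slide as a block (0.455%). Markers of other cells moved in males as well: 8 of 8 neuron, 5 of 5 oligodendrocyte, 5 of 5 astrocyte and 5 of 5 fibroblast markers had a higher fitted value in OOX (medians 0.51, 0.44, 0.34 and 0.53), of which 0 passed after adjustment. Of the choroid epithelium markers 8 of 10 had a lower one (median -0.30, with 5 saturated on every male array). Within the slide that held both male groups the medians were -1.32 for neuron, -0.27 for oligodendrocyte and -0.64 for astrocyte markers, opposite in sign. There fibroblast markers had 1.03 and choroid epithelium markers -0.20. Lower fitted values were also found for 3 of 4 endothelium, 3 of 5 macrophage and 3 of 3 red blood cell markers. Higher ones were found for 2 of 3 ependyma and 3 of 3 B and plasma cell markers. The part of these cells in the pathway values was not tested. By the test of the methods 7 passed in females and 13 in males before adjustment, and 0 after it.

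In females Derl3, which encodes a component of ERAD, was at -0.34, -0.15 and 0.01 on the OVX arrays, against -0.66, -1.06 and -0.97 on the sham arrays. The difference of 0.74 (SE 0.16) had an adjusted p of 0.0502, just outside the threshold. It passed in 5 of the other settings, which called 926 to 1066 of the 15154 genes, and not in the rest. Among the 5 was the 75th percentile in place of the median, at 0.82 (adjusted p 0.0415). Chac1, an ISR target whose product degrades glutathione, was at 1.56, 1.63 and 1.59 in OVX, against 1.19, 1.17 and 1.15 in sham females (difference 0.42, SE 0.11, adjusted p 0.0706). It passed with the 75th percentile (0.51, adjusted p 0.0436) and with the value table (0.48, adjusted p 0.0458). The summed level of the 3 B and plasma cell markers measured of 5 (Mzb1, Cd79b and Tnfrsf17) was 0.178 to 0.406 times the array median on the OVX arrays, against 0.117 to 0.141 on the sham female arrays. Of these, 1 marker was well above background on no OVX array and 2 on no sham array. The markers differed in direction: Mzb1 was higher (0.88) and Tnfrsf17 lower (-0.71) in OVX, both called, and Cd79b had 1.49; their part in the value of Derl3 was not tested. The slide that held both groups gave 0.63 for Derl3 and 0.41 for Chac1, and the scan day as a block gave 0.56 and 0.39. Gdf15, a secreted stress cytokine, was at 3.52, 2.56 and 1.05 in OVX, against 4.29, 4.28 and 3.68 in sham females, and the difference of -1.71 (SE 0.60, adjusted p 0.158) was -0.16 within the slide that held both groups. Fgf21, a secreted hormone and ISR target, was well above background on 3 of 3 OVX arrays and on 0 of 3 sham female arrays. Of all spots, 85.3% to 87.2% were so marked on the OVX arrays, against 79.7% to 82.7% on the sham female arrays. Fgf21 was dim, at -4.22, -3.34 and -3.94 in OVX, against -4.59, -4.87 and -4.59 in sham females. The difference of 0.85 (SE 0.24, adjusted p 0.094) was 0.37 within the slide that held both groups. The heat shock gene Hsp90aa1 (-0.62, adjusted p 0.204, and -0.15 within the slide) and the early response genes Jun (-0.82, adjusted p 0.177, and 0.05 within the slide), Egr1 (-1.20, adjusted p 0.193, and -1.001 within the slide) and Ier2 (-0.34, adjusted p 0.216, and -0.09 within the slide) had lower values in OVX.

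In males Slc7a5, which encodes an amino acid transporter subunit and is an ISR target, was at -1.33, -1.37, -0.84 and -0.81 in OOX, against 0.14, -0.33, -0.59 and -0.13 in sham. The difference of -0.86 (SE 0.21, adjusted p 0.425) was -0.71 within the slide that held both groups. Eif4ebp1, another ISR target, had a higher value in OOX, at 0.33 (adjusted p 0.665, and 0.45 within the slide). Ero1a, an oxidase that drives disulfide formation in the ER, was at 1.97, 1.82, 1.78 and 1.86 in OOX, against 2.19, 2.35, 2.42 and 2.71 in sham, a difference of -0.56 (SE 0.14, adjusted p 0.452). The groups overlapped neither for Ero1a nor for Slc7a5. Of all genes, 1.57% had OOX lower without overlap. Ero1b, a related oxidase, had a difference of -0.55 (adjusted p 0.648), Sec61a1, a subunit of the ER translocation channel, one of -0.48 (adjusted p 0.623), and Sars1, a cytosolic aminoacyl-tRNA synthetase, one of -0.33 (adjusted p 0.648). Edem3, which trims mannose from misfolded glycoproteins, had a difference of -0.33 (adjusted p 0.648). The groups of Sars1 and of Edem3 did not overlap either. Jun had -0.93 (SE 0.20, adjusted p 0.321), and its groups did not overlap, while Dusp1 had -0.51 and changed sign to 0.06 within the slide. Of the 10 sensors and partners 0 passed at an unadjusted p under 0.05 in either sex, against 19.9% of all genes in females and 6.88% in males. The median over the sensors was -0.08 in females and -0.08 in males, over the ISR targets -0.11 and -0.05, over the ER chaperones -0.18 and -0.16, and over ERAD and translocation -0.10 and -0.22. Over cytosolic heat shock it was -0.25 and 0.08, and over the early response -0.45 and -0.32. The medians of all genes were -0.07 in females and 0.02 in males. Within the slide that held both groups the list medians were -0.04 in females and 0.21 in males for the sensors, 0.04 and 0.10 for ISR targets, and -0.0095 and -0.08 for ER chaperones. They were 0.04 and -0.05 for ERAD and translocation, 0.12 and 0.32 for heat shock and -0.09 and 0.58 for the early response.

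**Figure D5:**
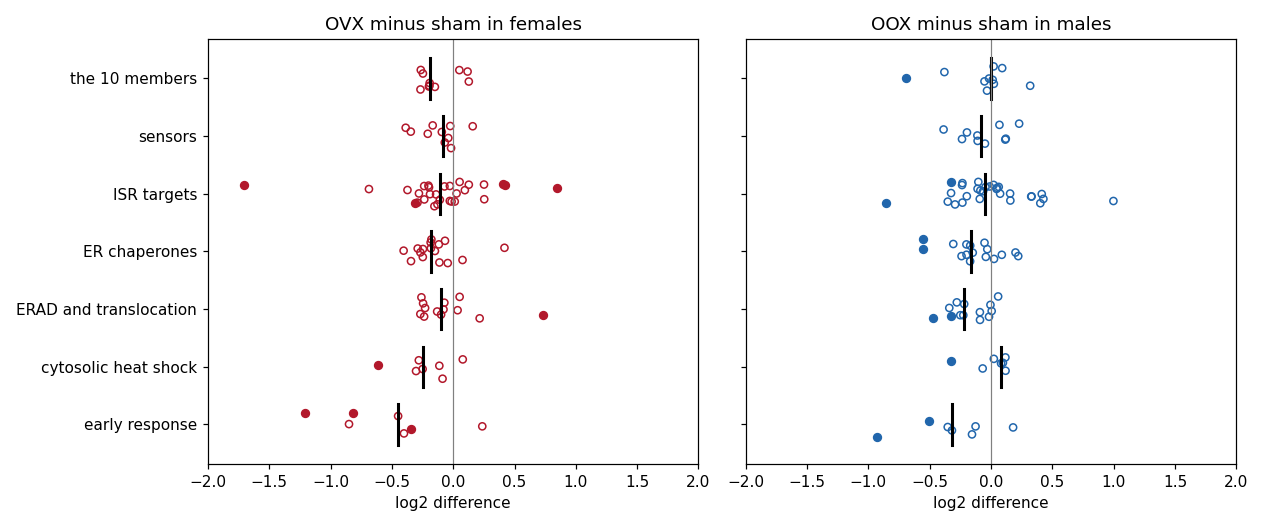
Log2 difference (x axis) of every gene of the set and of the 6 pathway lists (rows) between OVX and sham females (left) and between OOX and sham males (right). Filled points have an unadjusted p under 0.05 and black bars are list medians. In males all 9 filled points outside the set lie below 0, among them Hspa8, which missed the rule for naming genes. In females 4 lie above and 6 below. With the slide as a block 0 pathway genes passed as lower in males.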

How the data were processed

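RNA of lateral ventricle CP was hybridised in the Cy3 channel to arrays, 1 pool of 3 animals an array. The deposited scanner files, per the file headers from Agilent Feature Extraction 10.5.1.1, hold the fluorescence intensity of each spot after background subtraction. The deposited value table holds log2 values that the authors centred on the median; its columns (medians 7.59 to 7.88) differed from the log2 signal by 1 constant per array (-0.44 to 0.30, for 99.7% to 99.8% of probes within 0.05), and it was used as an alternative. Control spots were left out, as were outlier spots flagged at scanning (222 to 877 of 42877 per array), saturated spots (425 to 851) were kept, spots of a probe were averaged, and the median of the array was subtracted from the log2 signal. Of 30367 probes, 18004 took the names of 15154 genes through RefSeq accessions (GRCr8, used only to name them; the array annotation refers to rn4), and 12363 stayed unnamed. The number of arrays limits the precision.

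Groups were compared within each sex with limma 3.58.1 (lmFit and eBayes, R 4.3.3), and the male minus the female effect over all arrays, with Benjamini-Hochberg adjustment over all genes and unnamed probes and a threshold of 0.05. The fit was tested on simulated data. The members and lists were chosen with earlier results of these data known. The text names the members and the 5 genes most correlated with Atf4 and with Ppp1r15b. From the lists it names genes among the up to 3 per list and sex with the smallest p (well above background in a group, not saturated throughout). Not all of these are named, and Hspa8 is named outside this rule. The alternatives were the 75th percentile, quantile normalization, normexp with an offset of 50 (on median signals, as mean signals were not used here), outlier spots kept, the value table, the mean over probes, dim probes left out, array weights, blocks for replicate, slide and scan day (females; all males shared a day), all groups in 1 fit, the methods' t-test and each array left out. Chosen after seeing the data were the male fit without both OOX replicate 2 and sham replicate 1, the scan day in the difference between the sexes, and the male slide values against each sham array. Other software was Python 3.11.15, numpy 2.4.6, pandas 2.3.3 and the R package data.table (version 1.17.8).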

Additional observations from a re-analysis of the deposited data

Results flagged for a closer look

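Of 20 groups of 4 arrays of a gene, 2 held an array far from the other 3, where chance gives about 1 in 20. Both were sham males, and in both the array was replicate 1. Atf4 was at 6.16 on replicate 1, against 6.64, 6.61 and 6.65 on the others (gap to the nearest other array over the range of the group 0.928). Dnajb9 was at 2.82 on replicate 1, against 3.18, 3.21 and 3.15 on the others (0.856). The same array had the highest summed level of neuron markers, 58.6 times the array median.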

How the results depend on the processing

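No member passed an adjusted p of 0.05 under any setting tried. Ppp1r15b, Herpud1 and Trib3 kept their direction in males under all 22 alternatives, and Herpud1 and Sdf2l1 in females under all 20. Some of these alternatives return the main difference by design. The other members changed sign under some, and the cause was not tested. In females Ppp1r15a gave -0.40 with outlier spots kept, -0.34 with the value table, -0.0097 with array weights and -0.063 with the scan day as a block; array weights gave 0.10 for Ppp1r15b, 0.071 for Xbp1 and 0.080 for Dnajb9; the scan day gave 0.15 for Ppp1r15b, 0.0019 for Xbp1 and 0.15 for Dnajb9. The slide block in females, whose values equal those within the slide, gave 0.36 for Ppp1r15b, 0.079 for Hspa5, 0.084 for Atf4, 0.20 for Xbp1, 0.045 for Dnajb9, 0.069 for Atf6, 0.099 for Sec61b, 0.036 for Sel1l, 0.18 for Hspe1, 0.22 for Hspb1 and 0.048 for Jun. In males it gave 0.19 for Ppp1r15a, 0.10 for Hspa5, 0.31 for Atf4, 0.28 for Atf6, 0.058 for Dusp1 and 0.22 for Junb. Normexp in males gave 0.046 for Ppp1r15a, 0.082 for Hspa5 and 0.046 for Atf4; quantile normalization gave 0.20 for Hspa5 and 0.0065 for Atf4; array weights gave 0.010 for Ppp1r15a and 0.046 for Atf4.

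Leaving out 1 array in females, Ppp1r15a ranged over -0.063 to 0.30, Ppp1r15b over -0.36 to 0.065, Ddit3 over -0.097 to 0.27, Xbp1 over -0.35 to 0.14 and Trib3 over -0.80 to 0.24. In males Ppp1r15a ranged over -0.11 to 0.037, Hspa5 over -0.11 to 0.041, Atf4 over -0.14 to 0.10, Ddit3 over -0.061 to 0.089, Xbp1 over -0.098 to 0.10, Dnajb9 over -0.077 to 0.087, Sdf2l1 over -0.067 to 0.28, Hspb1 over -0.00042 to 0.29 and Hspd1 over -0.0029 to 0.22.

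The count of genes called was 942 in females and became 64 with quantile normalization, 112 with normexp, 188 with dim probes left out, 0 with the slide block, 3 with the methods' t-test, 229 with all groups in 1 fit and 14 with the scan day block, and 2 to 950 without 1 array. In males it was 13 and became 0 with normexp, 26 with array weights, 0 with the methods' t-test, 0 with all groups in 1 fit, 6 to 12 without 1 array and 0 without OOX replicate 2 and sham replicate 1 together. In the difference between the sexes it was 38 and became 83 with the 75th percentile, 64 with quantile normalization, 69 with the value table, 59 with dim probes left out, 329 with array weights and 10 with the slide block, and 19 to 49 without 1 array. In males replicate numbers did not pair the arrays: r between same-numbered arrays was -0.60 to 0.34, and no OOX array was closest to its same-numbered sham array. In females r was 0.35, -0.02 and 0.22, and OVX replicates 1 and 3 were closest to the sham array of their number. These few arrays do not settle whether the female arrays are paired. With the replicate block 0 genes were called in females, 8 in males and 15 in the difference between the sexes, with 0 members. Saturation limits Hspa5, and a single slide shared by both groups of a sex limits the check of the slide.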
